A study of Mus musculus with 64 samples.

Results

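The comparison covers 8 liver libraries taken at zeitgeber time 15 (ZT15, that is 15 hours after lights on, in the early dark phase), 4 from sh-Acsf3 mice and 4 from sh-Ctl mice, out of 64 libraries in the whole study. The sh-Acsf3 mice had received an adeno-associated virus of serotype 8 (AAV8) carrying a short hairpin against Acsf3, and the sh-Ctl mice the same kind of vector with a control hairpin, 4 weeks before the livers were taken. Both groups were male C57BL/6J mice with free access to food, so a liver-directed AAV8 injection and hairpin expression are common to both, and the promoter that drives the hairpin is not given in the sources used here. The remaining 56 libraries cover the same 2 treatments at 7 other times of day and are used here for the spread between replicates and as a set of independent libraries. RNA was measured by BRB-seq, which counts unique molecular identifiers (UMIs) at the 3′ ends of transcripts. Levels of single genes are given in CPM (a gene's UMI count relative to its library's total, after TMM scaling of the totals). Summed levels of gene lists are in CPM of the library's total without TMM scaling. The labels do not say that replicates came from separate animals, so p-values measure the spread between these samples.

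ACSF3 is an acyl-CoA synthetase of the mitochondrial matrix that joins malonate to coenzyme A. The malonyl-CoA it makes feeds mitochondrial fatty acid synthesis, which supplies the lipoyl group of the 2-oxoacid dehydrogenases, and is a donor for malonylation of lysine residues, which the sirtuin SIRT5 removes. In a nocturnal animal the early dark phase is the time of feeding, when the liver turns from fasting metabolism to the synthesis of glycogen and lipid and when the clock repressors of the PER family are near their daily high.

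The 4 sh-Acsf3 libraries held 1666978 to 5379629 UMIs and 13126 to 15444 detected genes, and the 4 sh-Ctl libraries held 2156753 to 4178370 UMIs and 13875 to 14803 genes. Transcripts of the mitochondrial genome took 17.1 to 19.4% of the UMIs in sh-Acsf3 and 16.2 to 20.1% in sh-Ctl. Both libraries that stood apart were from sh-Ctl. Replicate 2 held 2092 CPM of Saa1, against at most 52.0 CPM in the other 3 sh-Ctl libraries and 31.0 to 82.8 CPM in sh-Acsf3. Replicate 4 held 466 CPM over the exocrine pancreas list, against 14.4 to 49.1 CPM in sh-Acsf3 and 10.7 to 25.5 CPM in the other sh-Ctl libraries. The 19 tested hepatocyte identity genes had a median difference of -0.01 (log2, sh-Acsf3 minus sh-Ctl) and summed to 159650 to 172940 CPM in sh-Acsf3 and 143150 to 171800 CPM in sh-Ctl.

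Across 10097 tested genes, 3 passed an adjusted p of 0.05 at ZT15. Ccl5 and Ccnd1 rose in sh-Acsf3 livers (0.0198% of the genes tested), and Acsf3 fell (0.0099%). At an unadjusted p of 0.05 the counts were 306 higher (3.03%) and 234 lower (2.32%), and with library size as the only scaling these became 342 and 130. In 202 genes (2%) all 4 sh-Acsf3 libraries lay above all 4 sh-Ctl libraries, and in 163 genes (1.61%) all 4 lay below. The median standard error of a difference was 0.23 on the log2 scale, and the smallest difference that passed was 1.45. Most differences described below did not pass and are given as values.

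Acsf3, the targeted gene (ENSMUSG00000015016, chromosome 8 from 122775486 to 122817880 on the plus strand, GRCm38), was low in every sh-Acsf3 library. It was at 2.71, 2.86, 2.18 and 2.40 CPM in sh-Acsf3, against 6.32, 10.4, 9.88 and 12.8 CPM in sh-Ctl, and the groups did not overlap. These levels rest on 38 UMIs in sh-Acsf3 and 131 UMIs in sh-Ctl. Acsf3 thus fell by 1.91 ± 0.35 (log2, SE, n = 4 each, edgeR adjusted p = 0.00455), to 26.6% of its sh-Ctl level. The call ended without sh-Acsf3 replicate 1 (adjusted p = 0.0566) and without sh-Ctl replicate 4 (adjusted p = 0.0941), the library with pancreas RNA. The annotated gene Gm20388 overlaps Acsf3 on the same strand, so reads in the overlap may be uncertain.

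**Figure D1:**
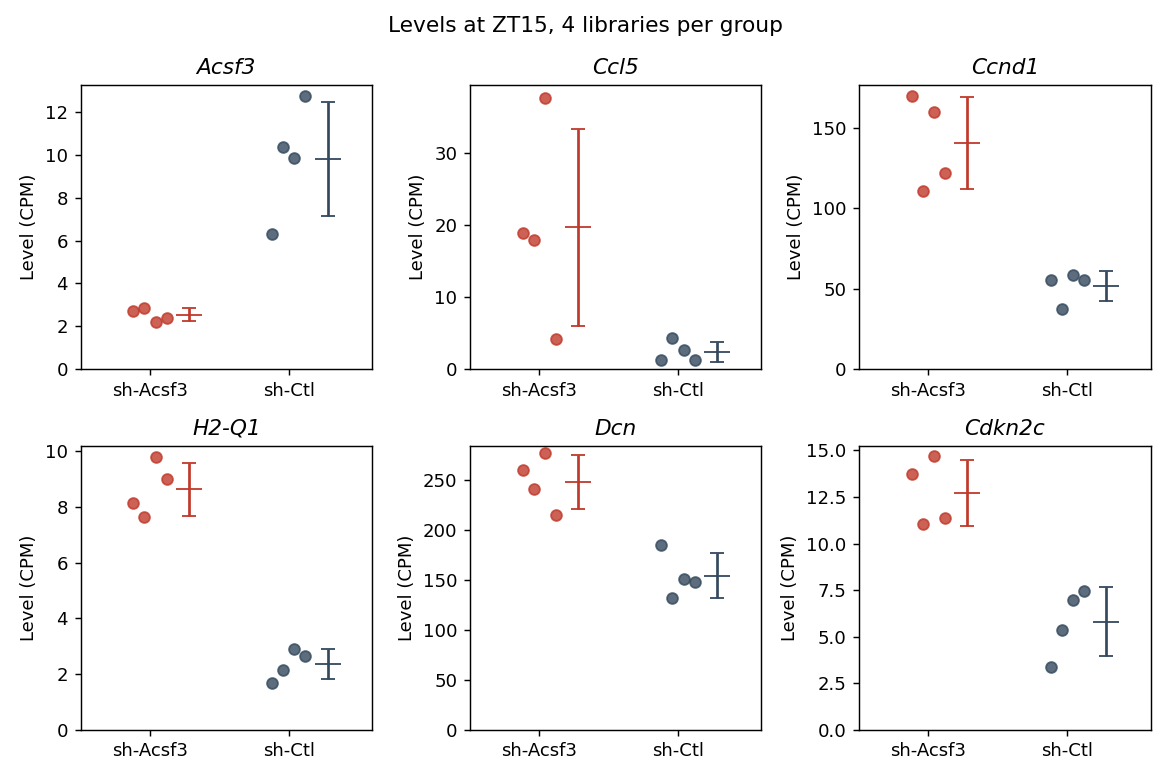
Levels (CPM) of 6 genes in the 8 ZT15 libraries, with sh-Acsf3 left of sh-Ctl; each point is a library and the bars are the mean and SD of 4. Acsf3 lies between 2.18 and 2.86 CPM in sh-Acsf3 and above 6 CPM in sh-Ctl, Ccl5 overlaps through sh-Acsf3 replicate 4 at 4.2 CPM, and the other 4 genes are higher in every sh-Acsf3 library.

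No partner of ACSF3 in malonyl-CoA use passed the test. Of 19 tested genes of malonyl-CoA metabolism, mitochondrial fatty acid synthesis and lipoylation, Acsf3 was the only one to pass, and the median difference was -0.03, against 0.00126 over all tested genes. Mecr, the last reductase of mitochondrial fatty acid synthesis, was at 13.7, 11.6, 13.1 and 10.8 CPM in sh-Acsf3 and at 10.9, 12.9, 9.88 and 7.94 CPM in sh-Ctl, a difference of 0.27 ± 0.20. Mcat, the malonyl transferase of that pathway, averaged 15.1 ± 2.01 CPM in sh-Acsf3 and 12.4 ± 0.699 CPM in sh-Ctl (SD, n = 4 each), a difference of 0.24 ± 0.17. Both overlapped between the groups. Among 15 genes of the sirtuins and of NAD salvage none passed, and the median was -0.02. Sirt3, the main mitochondrial deacetylase, averaged 53.6 ± 9.63 CPM in sh-Acsf3 and 38.5 ± 5.34 CPM in sh-Ctl, a difference of 0.46 ± 0.25 that did not pass.

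Ccl5, a chemokine made by activated T and NK cells, showed the largest difference that passed. It was at 18.8, 17.9, 37.5 and 4.2 CPM in sh-Acsf3, against 1.26, 4.29, 2.62 and 1.2 CPM in sh-Ctl. Replicates 1 to 3 of sh-Acsf3 lay above all sh-Ctl libraries, and replicate 4 lay just under sh-Ctl replicate 2. Ccl5 rose by 3.07 ± 0.41 (log2, SE, edgeR adjusted p = 6.91e-06), on 274 UMIs in sh-Acsf3 and 29 UMIs in sh-Ctl. In a fit on the 8 ZT15 libraries alone the adjusted p was 0.329. The gene has 3 exons and lies on the minus strand of chromosome 11 from 83525778 to 83530518 (GRCm38).

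Other T and NK cell markers were few in reads and mostly pointed the same way. Of 23 listed genes 8 had enough reads to be tested, and 1 of them, Ccl5, passed. All 8 had positive differences, against 50.2% of all tested genes, with a median of 1.88. The filter on reads can keep a low gene through sh-Acsf3 libraries alone or sh-Ctl libraries alone. Such shares are therefore no test, here and for the lists below. The summed level of the whole list was 40.2 to 115 CPM in sh-Acsf3 and 13.2 to 38.9 CPM in sh-Ctl. Without TMM scaling these ranges did not overlap, by a small margin. Ccl5 is part of this sum and averaged 19.6 CPM in sh-Acsf3 and 2.34 CPM in sh-Ctl after TMM scaling. Gzmk was the only member detected in sh-Acsf3 and at 0 in sh-Ctl. Nkg7, a granule protein of NK and cytotoxic T cells, was at 4.34, 3.24, 5.44 and 0.600 CPM in sh-Acsf3 and at 1.26, 1.07, 0.581 and 0.722 CPM in sh-Ctl, so that sh-Acsf3 replicate 4 was again low. Trbc2, a constant region of the T cell receptor, was at 1.8 to 8.16 CPM in sh-Acsf3 and 0.715 to 1.68 CPM in sh-Ctl, and Cd3g, a chain of the same receptor complex, at 0.954 to 3.81 CPM in sh-Acsf3 and 0 to 0.581 CPM in sh-Ctl. Neither Trbc2 (1.77 ± 0.53) nor Cd3g (2.45 ± 0.76, on 26 UMIs in sh-Acsf3 and 4 in sh-Ctl) passed. In bulk liver, a change in the number of such cells and a change in RNA per cell cannot be told apart, here and for every marker list below.

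B cell and plasma cell markers did not show this pattern at ZT15. None of 6 tested genes passed, with a median of -0.01 at ZT15, and Cd79a and Mzb1, both defining markers, held no UMI in any of the 8 libraries. Igkc, the kappa light chain, was at 9.95, 10.1, 28.8 and 12.0 CPM in sh-Acsf3 and at 14.3, 7.15, 2.91 and 15.6 CPM in sh-Ctl. Jchain, which joins secreted IgA and IgM units, was at 0.600 to 3.26 CPM in sh-Acsf3 and 0.715 to 4.81 CPM in sh-Ctl. Over the mean of the other 7 times the same 2 genes had differences of 1.71 ± 0.24 and 1.68 ± 0.30, both past the threshold (edgeR adjusted p = 3.98e-07 and 2.62e-05). The tests of ZT15 against those times, -1.22 ± 0.68 for Igkc and -2.09 ± 0.74 for Jchain, did not pass after adjustment.

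Ccnd1, which encodes cyclin D1, the partner of CDK4 and CDK6 at entry into the cell cycle, was high in every sh-Acsf3 library. It was at 170.0, 111, 160.0 and 122 CPM in sh-Acsf3, against 55.2, 37.5, 58.1 and 55.1 CPM in sh-Ctl, with no overlap. Ccnd1 rose by 1.45 ± 0.29 (log2, SE, edgeR adjusted p = 0.0248), on 2017 UMIs in sh-Acsf3 and 665 UMIs in sh-Ctl. Its difference kept between 1.32 and 1.54 when any one of the 8 libraries was left out, but the adjusted p then passed only without sh-Acsf3 replicate 2 (0.0281) or 4 (0.0408) and reached 0.239 without sh-Ctl replicate 2. The 5 exons of Ccnd1 lie on the minus strand of chromosome 7 from 144929931 to 144939925, and another gene overlaps it on the opposite strand.

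Of 22 tested cell cycle genes Ccnd1 was the only one to pass. All 22 had positive differences, against 50.2% of all tested genes. There were 6 under an unadjusted p of 0.05, against 3.03% of all tested genes. Without sh-Ctl replicate 2, 3 of 23 were under that p. The list's median was 0.61, and 0.30 among members with a mean of at least 5 CPM. Its summed level was 352 to 475 CPM in sh-Acsf3 and 201 to 284 CPM in sh-Ctl. Ccnd1 is part of this sum and averaged 141 CPM in sh-Acsf3 and 51.5 CPM in sh-Ctl after TMM scaling. Cdkn2c, which encodes the CDK4 and CDK6 inhibitor p18, was at 13.7, 11.1, 14.7 and 11.4 CPM in sh-Acsf3 and at 3.37, 5.36, 6.98 and 7.46 CPM in sh-Ctl, without overlap, a difference of 1.08 ± 0.25 (adjusted p = 0.0973). The replication licensing genes Mcm4 (1.00 ± 0.44) and Mcm5 (1.62 ± 0.72) overlapped between the groups, and Mcm5 was held by 39 UMIs in sh-Acsf3 and 11 in sh-Ctl and differed by 2.91 without sh-Ctl replicate 3. Fas, the death receptor and a target of p53, was at 13.6 to 18.1 CPM in sh-Acsf3 and 10.1 to 11.0 CPM in sh-Ctl, a difference of 0.65 ± 0.19 (adjusted p = 0.342), while the 9 tested p53 targets had a median of 0.09.

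Of 6 tested antigen presentation genes of MHC class II, 4 were higher in every sh-Acsf3 library, without passing the test. Cd74, the invariant chain that guides class II molecules, was at 62.9, 78.4, 155 and 82.2 CPM in sh-Acsf3 and at 42.5, 26.8, 36.9 and 23.1 CPM in sh-Ctl. The chain genes H2-Aa, H2-Ab1 and H2-Eb1 averaged 74.2 ± 23.9, 39.6 ± 6.86 and 65.9 ± 25.1 CPM in sh-Acsf3, against 29.7 ± 4.94, 16.9 ± 5.06 and 24.6 ± 6.65 CPM in sh-Ctl. In all 4 genes every sh-Acsf3 library lay above every sh-Ctl library, where 2% of all tested genes did so, and sh-Acsf3 replicate 3 was the highest. The differences were 1.54 ± 0.46 for Cd74, 1.31 ± 0.48 for H2-Aa, 1.21 ± 0.43 for H2-Ab1 and 1.39 ± 0.50 for H2-Eb1, with edgeR adjusted p-values of 0.38 to 0.666. In the fit on ZT15 libraries alone H2-Ab1 was called (edgeR adjusted p = 0.017). Class II genes are made by B cells, dendritic cells and macrophages, and all 10 listed class II genes together summed to 192 to 436 CPM in sh-Acsf3 and 86.2 to 138 CPM in sh-Ctl.

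The promoters of H2-Aa and H2-Eb1 are shown because these genes lay apart together and their promoters are in the RefSeq table for GRCm38.p6. Each window runs from 250 bases before the annotated start to 50 bases after it, 5′ to 3′ on the gene's strand, from chr17:34287774-34288073 (minus strand) for H2-Aa and chr17:34305617-34305916 (plus strand) for H2-Eb1. Capitals mark the Y box CTGATTGG, searched on both strands, and in H2-Aa also the palindrome TGACGTCA, the cyclic AMP response element.
H2-Aa: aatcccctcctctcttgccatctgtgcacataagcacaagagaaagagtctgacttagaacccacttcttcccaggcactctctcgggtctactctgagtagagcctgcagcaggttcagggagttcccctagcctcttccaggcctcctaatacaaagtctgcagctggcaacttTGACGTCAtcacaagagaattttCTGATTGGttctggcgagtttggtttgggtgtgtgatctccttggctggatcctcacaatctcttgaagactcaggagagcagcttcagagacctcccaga
H2-Eb1: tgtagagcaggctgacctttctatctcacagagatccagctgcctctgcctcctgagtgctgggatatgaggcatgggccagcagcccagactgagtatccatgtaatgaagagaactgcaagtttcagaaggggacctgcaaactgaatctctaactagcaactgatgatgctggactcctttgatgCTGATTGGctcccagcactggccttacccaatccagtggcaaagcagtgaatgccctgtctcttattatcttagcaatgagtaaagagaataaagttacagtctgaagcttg
The Y box began 51 bases upstream of the start in H2-Aa and 62 bases upstream in H2-Eb1, and was present in 4.1% of the 32851 promoters of the table. The palindrome began 74 bases upstream in H2-Aa, did not overlap the Y box, and was present in 1.79% of promoters. Class II promoters are known to carry an X and a Y box at such a spacing, and these matches are descriptions of the letters in the windows.

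H2-Q1, a class I gene of the Qa region, had the smallest p among genes that did not pass. It was at 8.14, 7.63, 9.79 and 9.00 CPM in sh-Acsf3 and at 1.68, 2.14, 2.91 and 2.65 CPM in sh-Ctl, a difference of 1.79 ± 0.39 (edgeR adjusted p = 0.0553). The groups were far apart, although class I genes are close relatives and their reads can be shared. DESeq2 and the fit on ZT15 libraries alone each called H2-Q1. It was not called by limma-voom (adjusted p = 0.212) or with library size as the only scaling (edgeR adjusted p = 0.0975). Leaving out any 1 ZT15 library gave edgeR adjusted p-values of 0.0863 to 0.259. Of 23 tested interferon-stimulated genes none passed, 19 were positive, against 50.2% of all tested genes, and the median was 0.27. Igtp and Irgm1, both interferon-inducible GTPases, were at 28.8 to 33.2 and 24.6 to 33.4 CPM in sh-Acsf3, against 13.7 to 16.1 and 19.7 to 23.2 CPM in sh-Ctl. Gbp2, a guanylate-binding protein of the same response, was at 7.25 to 10.2 CPM in sh-Acsf3 and 2.41 to 6.43 CPM in sh-Ctl. These 3 did not overlap between groups, with differences of 1.04 ± 0.50, 0.48 ± 0.26 and 0.79 ± 0.49 that did not pass, although Igtp was called on ZT15 libraries alone (edgeR adjusted p = 0.00292), and the list's median was 0.08 without sh-Acsf3 replicate 2.

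Genes of stellate cells and fibroblasts, which store vitamin A and lay down the liver's matrix, had positive differences in 25 of 27 tested members. Among all tested genes 50.2% were positive. None passed, and 13 were under an unadjusted p of 0.05 against 3.03% of all tested genes. In 9 members every sh-Acsf3 library lay above every sh-Ctl library, where 2% of all tested genes did so. The median was 0.64, and the summed level was 622 to 854 CPM in sh-Acsf3 and 346 to 468 CPM in sh-Ctl. Dcn, the matrix proteoglycan decorin, was at 259.5, 241, 277 and 215 CPM in sh-Acsf3 and at 185, 132, 151 and 148 CPM in sh-Ctl. Its difference of 0.69 ± 0.15 (edgeR adjusted p = 0.0553) was called by DESeq2, by limma-voom and in the fit on ZT15 libraries alone. With library size as the only scaling it was not called (edgeR adjusted p = 0.312). Leaving out 1 library at a time, it was called only without sh-Ctl replicate 1 or sh-Acsf3 replicate 4. The edgeR adjusted p reached 0.52 without sh-Acsf3 replicate 3. Col1a2, a chain of type I collagen, was at 30.7, 21.9, 47.3 and 54.0 CPM in sh-Acsf3 and at 10.9, 16.8, 16.3 and 15.4 CPM in sh-Ctl, a difference of 1.30 ± 0.31 (edgeR adjusted p = 0.15) that DESeq2 called (adjusted p = 0.0253). Col3a1, the chain of type III collagen, was at 35.7 to 81.6 CPM in sh-Acsf3 and 18.5 to 27.6 CPM in sh-Ctl, a difference of 1.21 ± 0.33. Both collagen genes were highest in sh-Acsf3 replicates 3 and 4, the shallowest libraries of the 8. Bgn, the proteoglycan biglycan, overlapped by 1 library, with 34.0 to 63.7 CPM in sh-Acsf3 and 24.4 to 35.0 CPM in sh-Ctl (0.69 ± 0.19).

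Macrophage markers overlapped between the groups in their summed level. Of 20 tested Kupffer cell and macrophage genes none passed, and the median was 0.17. The summed level was 442 to 879 CPM in sh-Acsf3 and 395 to 601 CPM in sh-Ctl. Differences were positive in 14 members, against 50.2% of all tested genes, and negative in 6. Among the negative ones were Slc40a1 (-0.28), Cd163 (-0.27), Timd4 (-0.13) and Adgre1 (-0.05). Mmp12, the macrophage elastase, was at 2.35, 1.34, 3.26 and 1.8 CPM in sh-Acsf3 and at 0.842, 0.715, 0.291 and 0 CPM in sh-Ctl, a difference of 2.27 ± 0.78 (adjusted p = 0.586) on 29 UMIs in sh-Acsf3 and 5 in sh-Ctl. C1qb, a complement subunit made by Kupffer cells, averaged 44.7 ± 14.7 CPM in sh-Acsf3 and 30.3 ± 9.54 CPM in sh-Ctl. Marco, a scavenger receptor, was at 1.45, 10.1, 3.26 and 1.2 CPM in sh-Acsf3 and 5.47, 1.07, 1.16 and 0.722 CPM in sh-Ctl, with a single high library in each group. The 8 tested monocyte and neutrophil genes were all positive, against 50.2% of all tested genes, with a median of 0.62, and none passed. One of them, Lgals3, which encodes galectin-3, averaged 16.1 ± 6.19 CPM in sh-Acsf3 and 10.6 ± 3.23 CPM in sh-Ctl. The 18 sinusoidal endothelial genes had a median of -0.03, with 7 positive and 11 negative. In the same list Vcam1, a leukocyte adhesion molecule, averaged 13.9 ± 2.34 CPM in sh-Acsf3 and 8.78 ± 3.66 CPM in sh-Ctl. Cdh5 and Lyve1 differed by -0.38 each. How far the marker lists of T cells, stellate cells and macrophages account for the other differences was not tested.

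**Figure D2:**
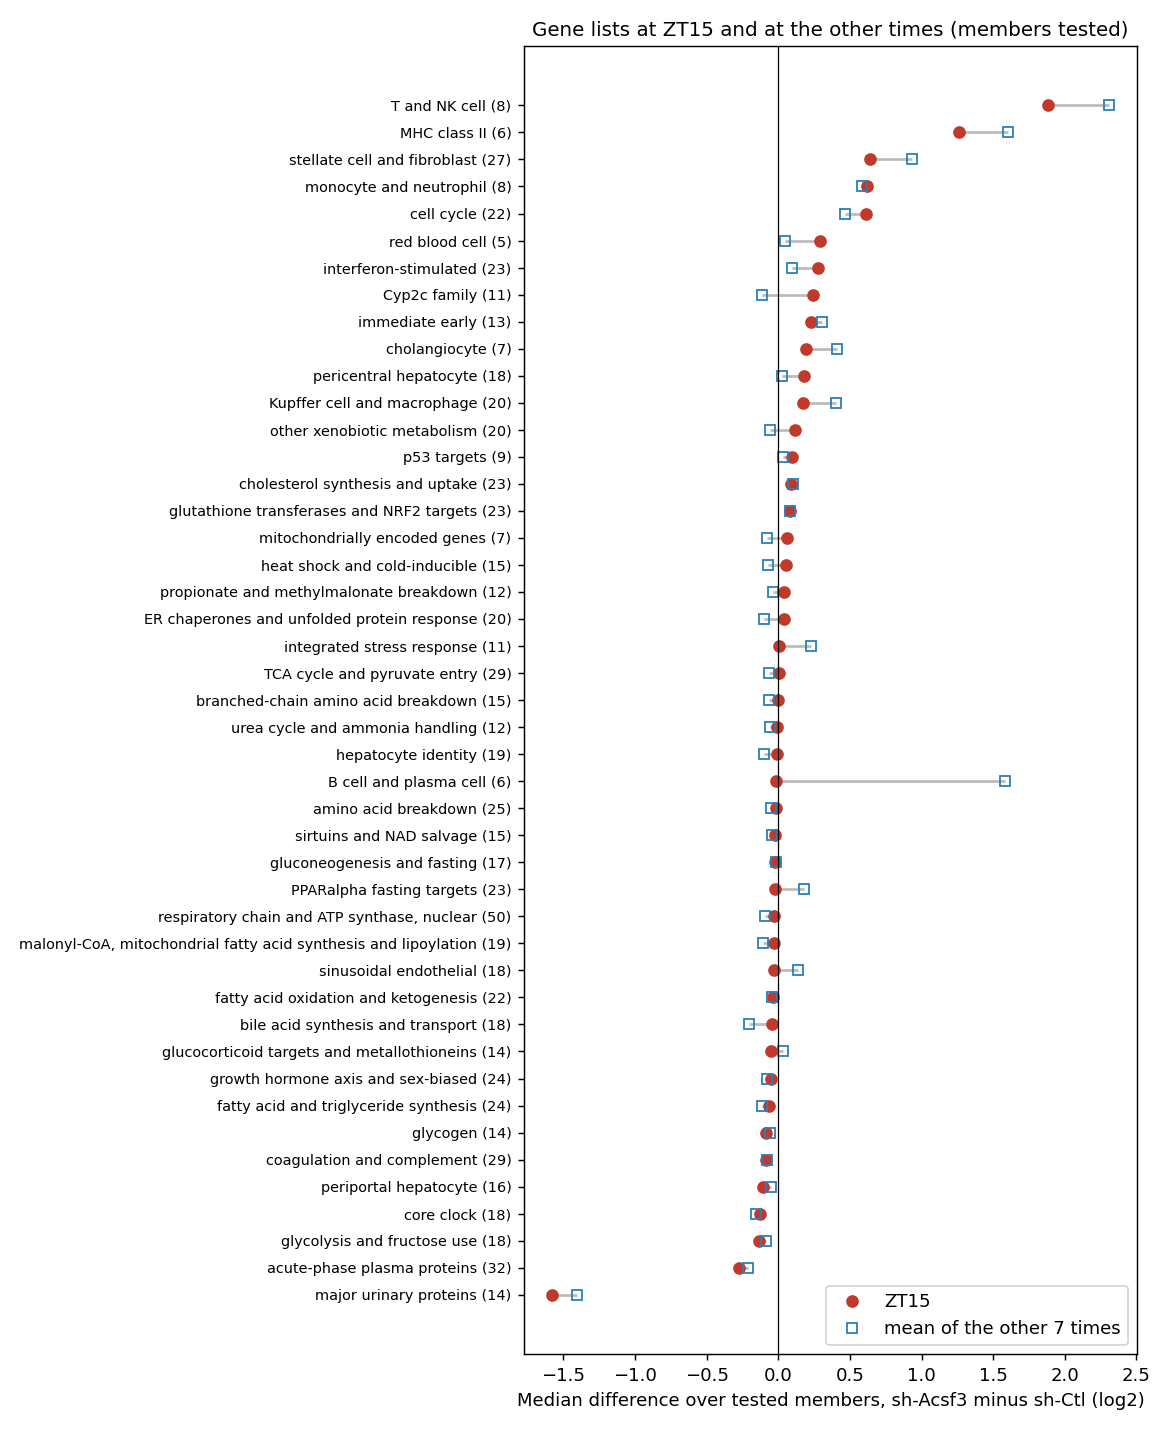
Median difference (log2, sh-Acsf3 minus sh-Ctl) over the tested members of each gene list, at ZT15 (filled circles) and over the mean of the other 7 times (open squares), with the number of members tested in brackets. The T and NK, MHC class II and stellate cell lists stand highest at ZT15 (1.88, 1.26 and 0.64), the major urinary proteins lowest (-1.58), and most metabolic lists lie near 0. The exocrine pancreas list is left out because 1 library sets it, and the adipose and skin list because only 2 members were tested.

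The major urinary proteins, pheromone-binding lipocalins that the male mouse liver secretes, were lower in sh-Acsf3 as a family. All 14 tested members had negative differences with a median of -1.58, where 5024 of all 10097 tested genes were negative. Under an unadjusted p of 0.05 were 8 members, against 2.32% of all tested genes, and none passed. Their summed level, without TMM scaling, was 21899, 29132, 22069 and 20739 CPM in sh-Acsf3, against 30663, 37789, 64661 and 33650 CPM in sh-Ctl, without overlap. Mup11 was at 1146, 2949.9, 1228 and 1371 CPM in sh-Acsf3 and at 4742, 10780.0, 21096 and 7073 CPM in sh-Ctl. Mup9 was at 7.23, 8.01, 6.53 and 3.6 CPM in sh-Acsf3 and at 21.9, 64.0, 309.9 and 14.0 CPM in sh-Ctl. Replicate 3 was the highest sh-Ctl library for both genes, and the groups did not overlap in either. The differences were -2.71 ± 0.76 for Mup11, -3.92 ± 1.06 for Mup9, -3.56 ± 1.09 for Mup17 and -1.79 ± 0.52 for Mup12, with edgeR adjusted p-values of 0.29 to 0.421. DESeq2 called Mup9 (adjusted p = 0.0248). Without sh-Ctl replicate 3 the difference was -2.29 for Mup9 and -2.67 for Mup17, and without sh-Acsf3 replicate 2 it was -4.46 for Mup17.

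The promoters of Mup9 and Mup11 are shown because both genes were low together and members of this family are known as near copies. Both windows are from RefSeq (GRCm38.p6, minus strand), chr4:60421903-60422202 for Mup9 and chr4:60662346-60662645 for Mup11, with the TATA-type motif TATATAA in capitals.
Mup9: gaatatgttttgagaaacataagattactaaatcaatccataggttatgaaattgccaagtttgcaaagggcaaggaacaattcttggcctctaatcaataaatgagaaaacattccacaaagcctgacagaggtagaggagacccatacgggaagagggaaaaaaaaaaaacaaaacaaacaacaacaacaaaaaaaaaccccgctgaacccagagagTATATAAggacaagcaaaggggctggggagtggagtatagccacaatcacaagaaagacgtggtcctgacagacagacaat
Mup11: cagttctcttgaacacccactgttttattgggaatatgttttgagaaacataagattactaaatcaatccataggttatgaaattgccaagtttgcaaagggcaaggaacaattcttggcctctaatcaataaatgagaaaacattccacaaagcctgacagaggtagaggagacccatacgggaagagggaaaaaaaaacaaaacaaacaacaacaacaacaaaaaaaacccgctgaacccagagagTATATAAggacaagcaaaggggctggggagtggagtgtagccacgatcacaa
Over 272 aligned bases the windows were 97.4% identical. The motif began 31 bases upstream of the annotated start in Mup9 and 2 bases upstream in Mup11, whose start is annotated earlier in the same sequence, and 3.24% of all promoters hold it on either strand. Whether the 3′ ends that BRB-seq counts are as alike was not tested, so the values of single members are uncertain.

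Mup genes are known targets of growth hormone pulses through STAT5, and other genes of that axis showed no common direction. None of 24 tested genes of the growth hormone axis and of sex bias passed, and the median was -0.05. Bcl6, a repressor that growth hormone lowers, was at 15.2, 7.25, 15.2 and 11.4 CPM in sh-Acsf3 and at 30.3, 57.9, 53.2 and 19.2 CPM in sh-Ctl, without overlap, a difference of -1.73 ± 0.82 (adjusted p = 0.91). Cyp4a12b, a male-biased fatty acid hydroxylase, was at 55.0 to 89.2 CPM in sh-Acsf3 and 30.4 to 47.2 CPM in sh-Ctl, a difference of 0.94 ± 0.29 (edgeR adjusted p = 0.418, and 0.043 on ZT15 libraries alone).

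Xenobiotic genes had differences of both signs, none of which passed, although the fit on ZT15 libraries alone called Cyp2c68, Gstm2 and Cyp2u1 (edgeR adjusted p = 0.043 each). Of 11 tested members of the Cyp2c family of drug and steroid hydroxylases none passed. Positive were 8, against 50.2% of all tested genes, and the median was 0.24. Cyp2c68 was at 114, 113, 109 and 114 CPM in sh-Acsf3 and at 74.1, 55.0, 76.5 and 79.6 CPM in sh-Ctl, a difference of 0.65 ± 0.18 (adjusted p = 0.29). The sh-Acsf3 libraries were almost level and all above sh-Ctl. Those of Cyp2c55 (7.07 to 10.8 CPM in sh-Acsf3, 4.63 to 6.01 CPM in sh-Ctl) and Cyp2c67 also lay above sh-Ctl (217 to 248 CPM in sh-Acsf3, 115 to 207 CPM in sh-Ctl). Cyp2c37 had a negative difference, with 55.0 to 128 CPM in sh-Acsf3 and 91.0 to 185 CPM in sh-Ctl (-0.66 ± 0.33). Members of this family are close copies too. Among glutathione transferases, which conjugate electrophiles, Gstm2 was at 38.3, 41.8, 47.3 and 48.6 CPM in sh-Acsf3 and 15.2, 20.4, 21.5 and 31.5 CPM in sh-Ctl (0.95 ± 0.32), and Gstm3 at 37.2 to 78.6 CPM in sh-Acsf3 and 10.4 to 35.6 CPM in sh-Ctl (1.29 ± 0.59). The 23 tested genes of that list nevertheless had a median of 0.08. Cyp3a11, the main steroid and drug hydroxylase of its family, averaged 3034 ± 520.3 CPM in sh-Acsf3 and 2156 ± 478 CPM in sh-Ctl (0.49 ± 0.16), and Aox3, an aldehyde oxidase, 218 ± 45.3 CPM in sh-Acsf3 and 356 ± 40.2 CPM in sh-Ctl (-0.71 ± 0.26). Cyp2u1, a fatty acid hydroxylase, had the smallest p of the genes lower in sh-Acsf3 apart from Acsf3. It was at 32.2, 32.8, 28.8 and 31.8 CPM in sh-Acsf3 and at 51.8, 47.5, 55.5 and 46.2 CPM in sh-Ctl, tight in both groups and without overlap, a difference of -0.67 ± 0.18 (adjusted p = 0.203).

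The genes of the fed and fasted liver, which turn over around this time of day, showed medians close to that of all genes. No member passed in fatty acid and triglyceride synthesis (24 tested, median -0.07), cholesterol synthesis and uptake (23, 0.09), glycolysis and fructose use (18, -0.14), gluconeogenesis and fasting (17, -0.02), glycogen (14, -0.08), PPARalpha fasting targets (23, -0.02) or urea cycle and ammonia handling (12, -0.01). Scd2, a stearoyl-CoA desaturase, was at 7.96, 7.06, 4.35 and 9.00 CPM in sh-Acsf3 and at 3.79, 3.93, 3.20 and 4.81 CPM in sh-Ctl (0.85 ± 0.37). Lpin1, a phosphatidate phosphatase induced by fasting, was at 127, 70.2, 131 and 124 CPM in sh-Acsf3 and 64.4, 171, 198 and 247 CPM in sh-Ctl (-0.60 ± 0.43), and both groups varied widely.

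Sterol export and amino acid genes held a few differences of this size. Abcg8 and Abcg5, both subunits of the canalicular sterol transporter, averaged 18.7 ± 1.18 and 17.4 ± 3.59 CPM in sh-Acsf3, against 30.5 ± 10.1 and 25.9 ± 3.95 CPM in sh-Ctl. Their differences of -0.71 ± 0.22 and -0.62 ± 0.27 did not pass, and were -0.46 and -0.53 without sh-Ctl replicate 2. The 18 genes of bile acid synthesis and transport had a median of -0.05. Hal, which opens histidine breakdown in periportal cells, averaged 104 ± 17.1 CPM in sh-Acsf3 and 150.1 ± 38.9 CPM in sh-Ctl (-0.51 ± 0.19). Gulo, the last enzyme of vitamin C synthesis and a pericentral marker, averaged 529.7 ± 142 CPM in sh-Acsf3 and 368 ± 87.9 CPM in sh-Ctl (0.52 ± 0.19). The 18 pericentral genes had a median of 0.18 with 14 positive, and the 16 periportal genes a median of -0.11 with 5 positive. None in either list passed, and 50.2% of all tested genes were positive. Higher at an unadjusted p of 0.05 were 3 pericentral genes, against 306 of all 10097 tested genes. Without sh-Ctl replicate 2 there were 7 of 18, against 264 of 10267. The medians were then 0.25 for the pericentral and -0.13 for the periportal list.

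Genes of the mitochondrion, the compartment in which ACSF3 works, had medians near 0 at ZT15. No gene passed among 50 nuclear-encoded genes for oxidative phosphorylation (median -0.03), 29 of the TCA cycle and pyruvate entry (0.01) or 22 of fatty acid oxidation and ketogenesis (-0.03). The same held for 12 of propionate breakdown (0.04) and 7 tested genes of the mitochondrial genome (0.06), of which 5 more are listed at 0 in all 8 libraries. Idh2, the mitochondrial isocitrate dehydrogenase that makes NADPH, was at 97.1, 72.1, 80.5 and 93.0 CPM in sh-Acsf3 and at 56.8, 56.8, 70.9 and 65.7 CPM in sh-Ctl. It did not overlap between groups, with a difference of 0.45 ± 0.13 (adjusted p = 0.342). Cox4i1, a subunit of cytochrome c oxidase, averaged 391 ± 67.3 CPM in sh-Acsf3 and 309.7 ± 27.7 CPM in sh-Ctl (0.33 ± 0.17), and Ndufv1, the NADH-binding subunit of complex I, 131 ± 15.1 CPM in sh-Acsf3 and 150.5 ± 13.5 CPM in sh-Ctl (-0.20 ± 0.12). Cpt1a, which admits long-chain fatty acids to the mitochondrion and which malonyl-CoA inhibits, was at 172 to 179 CPM in sh-Acsf3 and 172 to 221 CPM in sh-Ctl (-0.19 ± 0.17). At a median standard error of 0.14 for the 1767 genes with at least 50 CPM, differences of this size were not detectable one gene at a time.

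Clock genes at ZT15 were not told apart between the groups, at standard errors such as 0.30 for Cry1 and 0.56 for Nr1d1. None of 18 tested clock genes passed, and 8 were positive, with a median of -0.13. Per2, a repressor that peaks early in the night, was at 36.9, 32.6, 26.1 and 24.6 CPM in sh-Acsf3 and at 52.6, 27.5, 21.5 and 21.2 CPM in sh-Ctl, and ZT15 held its highest mean of the day in both. Hlf, an output transcription factor, also had its highest daily mean at ZT15 in both, 44.1 ± 4.06 CPM in sh-Acsf3 and 53.2 ± 10.1 CPM in sh-Ctl (-0.29 ± 0.16). Arntl, the activator BMAL1, averaged 2.68 ± 0.428 CPM in sh-Acsf3 and 3.74 ± 1.75 CPM in sh-Ctl, between its low at ZT9 and its level at ZT18 in both, and its partner gene Clock 19.0 ± 3.64 CPM in sh-Acsf3 and 17.0 ± 3.89 CPM in sh-Ctl. Dbp, an output factor that peaks before dusk, averaged 55.5 ± 13.9 CPM in sh-Acsf3 and 60.9 ± 18.3 CPM in sh-Ctl. The repressor genes Cry1 (-0.38 ± 0.30), Nr1d1 (0.40 ± 0.56), Nr1d2 (-0.36 ± 0.24), Ciart (-0.24 ± 0.36), Per1 (-0.21 ± 0.39), Per3 (0.28 ± 0.31) and Cry2 (0.06 ± 0.23) did not pass. Nor did Rora (-0.10 ± 0.18), Bhlhe40 (-0.33 ± 0.28), Tef (-0.20 ± 0.21) or Nfil3 (0.23 ± 0.32), while Npas2 was held by 1 UMI in sh-Acsf3 and none in sh-Ctl. The list's median was 0.01 without sh-Ctl replicate 1, which held the highest Per2, Per1, Per3 and Clock of the 4 sh-Ctl libraries.

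**Figure D3:**
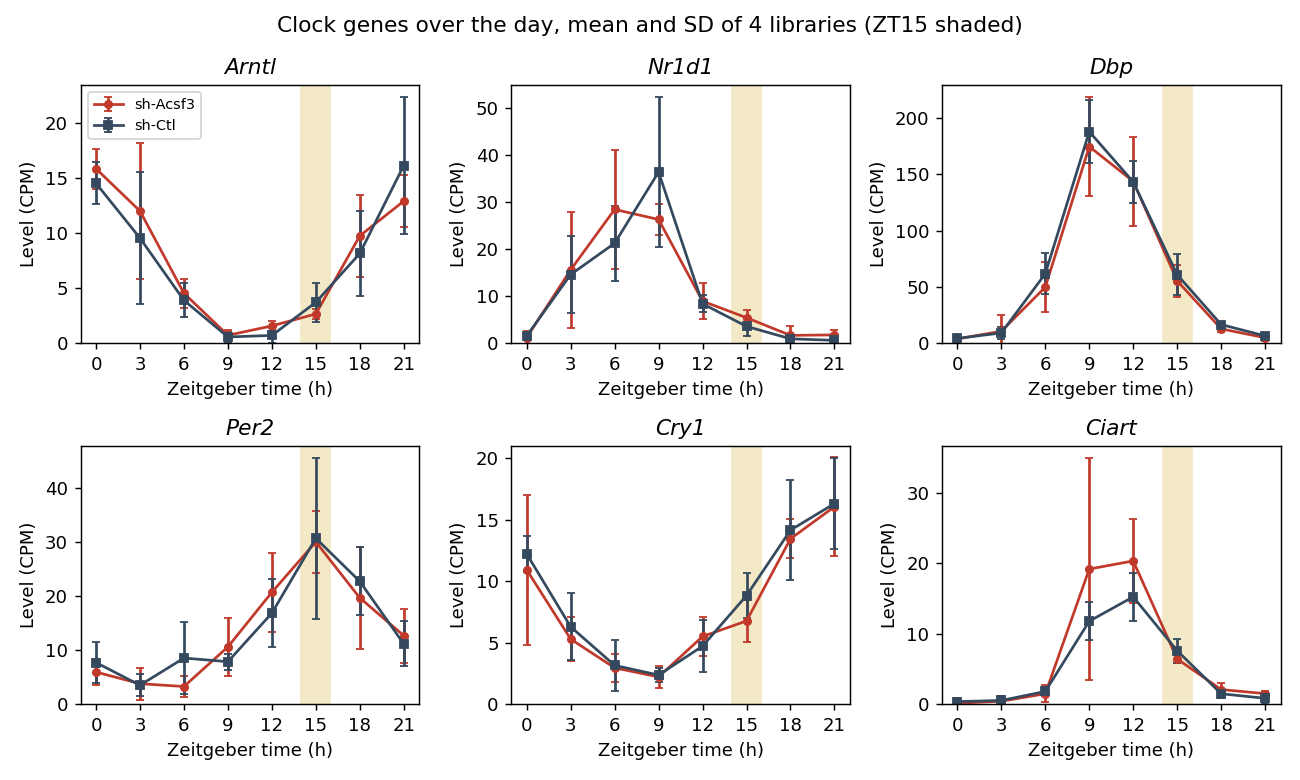
Mean level (CPM) and SD of 4 libraries for 6 clock genes at 8 zeitgeber times, sh-Acsf3 in red and sh-Ctl in dark blue, with ZT15 shaded. At ZT15 Per2 is at its daily high (30.1 CPM in sh-Acsf3, 30.7 CPM in sh-Ctl), Dbp and Nr1d1 have come down from ZT9, and Arntl and Cry1 are rising, with the SDs of both groups overlapping.

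Acute-phase genes show how far 1 library can set a comparison of 4 against 4. Saa1, an acute-phase apolipoprotein that the liver makes in response to interleukin 6, was at 73.2, 67.0, 31.0 and 82.8 CPM in sh-Acsf3 and at 23.2, 2092, 31.7 and 52.0 CPM in sh-Ctl. Its difference was -3.10 ± 1.38 (edgeR adjusted p = 0.899) with all 8 libraries and 0.81 without sh-Ctl replicate 2. Saa2, Saa3, Orm2 and Lcn2, all secreted in the same response, were likewise highest in that library, at 533, 901, 1451 and 77.9 CPM, against 10.3 to 19.8, 21.9 to 42.5, 15.8 to 34.5 and 3.26 to 5.44 CPM in sh-Acsf3. Their differences were -3.11, -2.91, -3.93 and -2.25 with all libraries and 0.66, 0.20, 1.13 and 1.98 without it. The metallothionein genes Mt1 and Mt2, which bind zinc and are induced by stress, stood at 278 and 169 CPM in sh-Ctl replicate 2, and their differences of -1.79 and -2.61 became 0.62 and 0.51. None of these genes passed in the main fit or in the fit without the library.

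**Figure D4:**
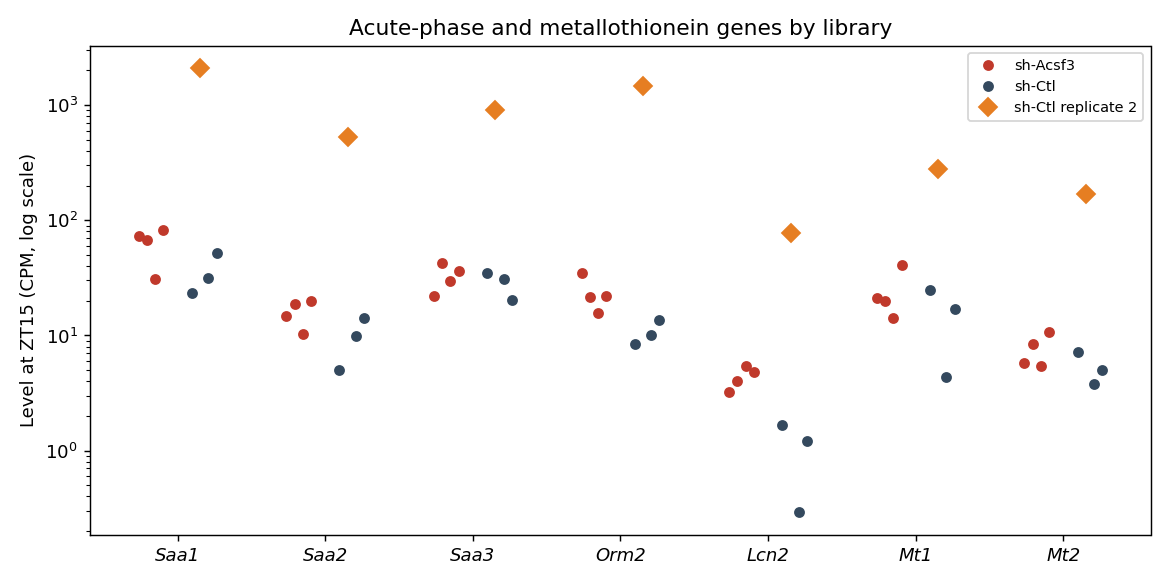
Levels (CPM, log scale) of 7 acute-phase and metallothionein genes in the ZT15 libraries, sh-Acsf3 left of sh-Ctl within each gene, with sh-Ctl replicate 2 as orange diamonds. That library lies above all others for every gene, at 2092 CPM for Saa1, and the other 3 sh-Ctl libraries lie below all sh-Acsf3 libraries for Orm2 and Lcn2.

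Over all 32 tested acute-phase genes the median was -0.27 with 7 positive, and 0.19 without sh-Ctl replicate 2. The 29 tested coagulation and complement genes, also made by hepatocytes, had medians of -0.09 with all libraries and 0.05 without that one. One of them, Klkb1, which encodes plasma prekallikrein, was at 270.4, 293, 278 and 282 CPM in sh-Acsf3 and at 368, 369.5, 354 and 340.2 CPM in sh-Ctl. It did not overlap and sh-Ctl replicate 2 was not apart from the others, with a difference of -0.35 ± 0.13 (adjusted p = 0.659). Without that library the median was 2.08 for T and NK cells, 1.16 for MHC class II, 0.56 for stellate cells, 0.57 for the cell cycle and -1.61 for the major urinary proteins. It was 0.34 for Kupffer cells and macrophages and 0.36 for the Cyp2c family, against 0.17 and 0.24 with all libraries. The 20 tested exocrine pancreas genes had no positive member and a median of -2.37, and Pnlip, pancreatic lipase, was at 51.7 CPM in sh-Ctl replicate 4 and at most 3.05 CPM in every other library.

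The other 7 times share no library with ZT15 and serve as a separate reading of the knockdown. Over their mean, 775 genes were higher (7.68%) and 555 lower (5.5%), with a median standard error of 0.09, against 0.23 at ZT15 alone. Of the 775 genes, 673 (86.8%) had a positive difference at ZT15, against 50.2% of all tested genes, and all 4 sh-Acsf3 libraries lay above all 4 sh-Ctl libraries in 94 (12.1%). Of the 555 genes, 98 (17.7%) were positive at ZT15, and all 4 sh-Acsf3 libraries lay below in 41 (7.39%). The median difference was 0.36 at ZT15 and 0.57 at the other times for the higher genes, and -0.15 and -0.24 for the lower ones. Across the 1330 genes, which are not independent, the differences correlated with a Pearson r of 0.815. These genes were picked for their differences at the other times, which widens the range. Over all 10097 tested genes the Pearson r was 0.257.

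**Figure D5:**
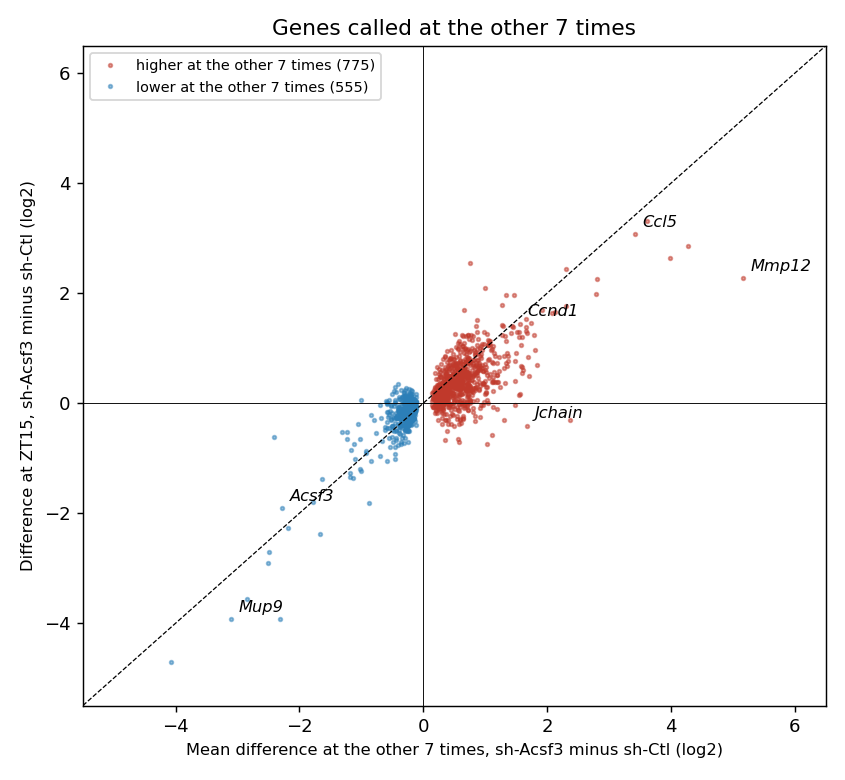
Difference at ZT15 against the mean difference at the other 7 times (both log2, sh-Acsf3 minus sh-Ctl) for the 1330 genes called at the other times, 775 higher (red) and 555 lower (blue); the dashed line marks equal values. Most points keep their sign at ZT15, Ccl5, Ccnd1 and Acsf3 lie near the line, and Mmp12 (2.27 at ZT15, 5.17 elsewhere) and Jchain (-0.41 and 1.68) lie below it.

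The 3 genes that passed at ZT15 had the same sign at the neighbouring times. Ccl5 differed by 3.02 ± 0.38 at ZT12 and 4.16 ± 0.45 at ZT18, Acsf3 by -1.50 ± 0.33 and -1.77 ± 0.36, and Ccnd1 by 1.93 ± 0.29 and 1.23 ± 0.30, of which Ccnd1 at ZT18 did not pass (edgeR adjusted p = 0.0761). In total 141 genes passed at ZT12, 17 at ZT18 and 3 at ZT15, at median standard errors of 0.24, 0.24 and 0.23. Of the 117 genes higher at ZT12, 108 were positive at ZT15, against 50.2% of all tested genes, and in 33 all 4 sh-Acsf3 libraries lay above all 4 sh-Ctl libraries, against 2% of all tested genes. Whether the counts of passing genes differ between these times was not tested.

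No gene passed the edgeR test that its difference at ZT15 departs from the mean of the other 7 times (0% of genes tested). Under an unadjusted p of 0.05 were 253 (2.51%), fewer than that p would give without any departure. DESeq2 and limma-voom also called 0, with 208 and 303 genes under an unadjusted p of 0.05. Among the 10 with the smallest p, Phf14, a PHD finger protein, was at 26.8, 34.1, 25.6 and 34.2 CPM in sh-Acsf3 and at 43.0, 37.9, 43.3 and 45.5 CPM in sh-Ctl, a difference of -0.49 ± 0.14 at ZT15 against 0.07 ± 0.06 elsewhere. Fundc2, a protein of the outer mitochondrial membrane, was at 5.61, 5.91, 6.53 and 8.4 CPM in sh-Acsf3 and at 2.95, 2.50, 3.20 and 3.13 CPM in sh-Ctl, a difference of 1.09 ± 0.28 at ZT15 against 0.03 ± 0.11 elsewhere. Neither gene overlapped between the groups. The 10 genes were picked by their departure at ZT15, so such patterns in them are no separate evidence of it. Spg7, a subunit of the mitochondrial m-AAA protease, differed by 0.49 ± 0.14 at ZT15 and by -0.0025 ± 0.05 elsewhere, and Ocel1, a gene with an occludin-like domain, by -0.76 ± 0.20 and -0.04 ± 0.08. Vcam1 (0.68 ± 0.26 and 1.57 ± 0.12), Gucy1a1, a subunit of the nitric oxide receptor (-0.12 ± 0.26 and 0.73 ± 0.10), and Ccdc34 (-0.24 ± 0.33 and 0.83 ± 0.13) were nearer to 0 at ZT15 than elsewhere. Mrtfa, a coactivator of serum response factor (-0.66 ± 0.29 and 0.35 ± 0.12), and Usp42, a ubiquitin protease (-0.68 ± 0.27 and 0.20 ± 0.11), had opposite signs. Tff2, a trefoil peptide, was at 27.4 CPM in sh-Ctl replicate 4, the library with pancreas RNA, and at most 2.91 CPM in the other 7 libraries.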

How the data were processed

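The authors deposited 1 table of UMI counts per gene for 64 liver libraries, raw per the file headers and values, and per the submitters' processing notes the reads were aligned with STAR to GRCm38 (mm10), in a version not given in the sources used here. Of 55487 genes, 23436 held at least 1 UMI and 10097 passed edgeR's filterByExpr (minimum count 10, minimum total 15). All 64 libraries were fitted as 16 groups (8 times, 2 treatments) with edgeR 4.0.16 in R 4.3.3 (TMM scaling, quasi-likelihood test, 48 residual degrees of freedom), with Benjamini-Hochberg adjustment over all tested genes and a threshold of 0.05, and the procedure was tested on simulated data. The ZT15 libraries held 1666978 to 5379629 UMIs, and the median standard error of a difference was 0.23 (log2) over all tested genes and 0.14 over those with at least 50 CPM.

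The genes named are Acsf3, Saa1 and Saa2, the largest differences among passing genes with at least 5 CPM, the 5 smallest p in each direction, up to 4 smallest p per list, the tested clock genes and the 10 smallest p for departure from the other times, of which some are not reported here. Members and the 47 gene lists were chosen with earlier results of these data known. Alternatives were other scalings and filters, DESeq2 1.42.0, limma-voom (limma 3.58.1), a replicate block, ZT15 alone and leaving out libraries. Promoters came from RefSeq (GRCm38.p6).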

Additional observations from a re-analysis of the deposited data

Results flagged for a closer look

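In 22 of 184 groups of 4 libraries, 1 library lay far from the other 3, where chance flags about 1 in 20 groups. The genes looked at were chosen with these data known and several move together, Saa1 and its acute-phase partners among them, so this count is no test. Replicate 2 of sh-Ctl held 8 of these. It was high for Saa1 (2092 CPM, the others at most 52.0), Saa2 (533 CPM), Saa3 (901 CPM), Orm2 (1451 CPM), Lcn2 (77.9 CPM), Mt1 (278 CPM) and Mt2 (169 CPM), and low for Ccnd1 (37.5 CPM, the others 55.1 to 58.1).

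Replicate 1 of sh-Ctl was high for Marco (5.47 CPM), Per1 (10.1 CPM), Per3 (14.7 CPM) and Clock (22.7 CPM). Replicate 3 of sh-Ctl was high for Mup9 (309.9 CPM). Replicate 4 of sh-Ctl was high for Tff2 (27.4 CPM) and Pnlip (51.7 CPM).

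Replicate 2 of sh-Acsf3 was high for Mup11 (2949.9 CPM) and Mup17 (690.0 CPM), and low for Lpin1 (70.2 CPM, the others 124 to 131) and Abcg8 (17.0 CPM, the others 19.2 to 19.6). Replicate 3 of sh-Acsf3 was low for Ndufv1 (108 CPM) and high for Igkc (28.8 CPM) and Npas2 (0.544 CPM, which is a single UMI).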

How the results depend on the processing

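With 2 genes higher and 1 lower at ZT15, RLE size factors and a minimum mean of 5 CPM gave the same counts and limma-voom added Dcn to the higher genes. Library size as the only scaling left 1 higher, DESeq2 gave 5 and 2, the fit on ZT15 libraries alone 8 and 2, and leaving out libraries high in Saa1 1 higher. Leaving out libraries with pancreas RNA gave 1 higher and 0 lower, with Acsf3 at -1.76 (edgeR adjusted p = 0.135). Without any gene filter there were 59 higher, 75 lower and 52 departures from the other times, against 0 departures under the other settings run. The 3 genes of the main fit were called there too. Its smallest adjusted p was that of Orm2, and Saa1, Saa2, Saa3, Mt1, Mt2, Lcn2 and Pnlip were also called. In each of these 1 sh-Ctl library stood far apart. The standard error of Saa1 was 0.17 in that run, against 1.38 in the main fit. Leaving out 1 library at a time gave 1 to 4 higher and 0 to 1 lower genes, and Acsf3 differences of -2.06 to -1.76.

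Deviations of same-numbered libraries correlated at 0.0243, -0.148, -0.0525 and 0.0416 over 7718 genes. Taken over all these genes at once, the correlations cannot tell whether replicate numbers pair the libraries for some genes. The replicate block gave 4 higher genes (adding H2-Q1 and Dcn) and 1 lower, with Acsf3 at -1.91, and within ZT15 alone it gave 18 higher and 4 lower, among them H2-Aa, H2-Ab1, H2-Eb1, Col1a2, Col3a1, Gstm3 and Aox3.

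Signs turned for genes that did not pass in the main fit. Without libraries high in Saa1 the differences were 0.82 for Saa1, 0.66 for Saa2, 0.20 for Saa3, 1.13 for Orm2, 1.99 for Lcn2, 0.63 for Mt1, 0.51 for Mt2 and -0.015 for Per2. Lcn2 was at 0.67 by limma-voom and Per2 at -0.018 by DESeq2. Without libraries with pancreas RNA they were 0.35 for Jchain, 1.83 for Pnlip, -0.12 for Per2 and -0.033 for Cry2. Leaving out 1 library at a time gave ranges of -3.52 to 0.81 for Saa1, -3.53 to 0.66 for Saa2, -3.33 to 0.20 for Saa3, -4.36 to 1.13 for Orm2, -2.70 to 1.98 for Lcn2, -2.21 to 0.62 for Mt1 and -3.03 to 0.51 for Mt2. The ranges were -0.13 to 0.39 for Per2, -0.70 to 0.35 for Jchain, -3.78 to 1.82 for Pnlip, -0.033 to 0.17 for Cry2 and -0.35 to 0.00204 for Per1. They were -0.22 to 0.014 for Rora, -0.043 to 2.16 for Marco, -0.43 to 0.044 for Gucy1a1 and 0 to 1.94 for Npas2. Apart from the libraries left out, the cause was not tested.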
